A study of Gossypium barbadense with 4 samples.

Results

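Antioxidant enzymes and redox proteins were followed in anthers and ovules of a semigametic cotton and of the line it arose from. The probe sets were those whose GenBank sequence carried a product description, in the lists of differentially expressed genes published with the data, that held superoxide dismutase, catalase, ascorbate peroxidase, glutathione, thioredoxin or peroxiredoxin, with alcohol dehydrogenase left out. They numbered 17 of the 24029 probe sets of the cotton array, controls not counted, and 1439 of the 24029 had any description. A further 2 sequences with these words, DR452461 and DR460765, both described as glutathione S-transferases, could not be tied to a probe set and were not analysed here. Because a probe set has a description only where the study called it different between the genotypes, 15 of the 17 entered through the ovule list and 2 through the anther list. Their genotype ratios in the tissue of that list are therefore given as a description and are not independent evidence of a direction.

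The 4 arrays were 57-4 anthers, Pima S-1 anthers, 57-4 ovules and Pima S-1 ovules, all of Gossypium barbadense. 57-4 is a natural doubled haploid mutant of Pima S-1 in which sperm and egg cells fuse but their nuclei do not (semigamy), and Pima S-1 is the normal cultivar of the same background. Both were field grown, and the tissues were taken at 0 days post anthesis (DPA). Each array received RNA pooled in equal amounts from 3 field replicates of 10 flowers, so that 1 array stands for each tissue and genotype and no spread between replicates could be measured. Whole anthers and whole ovules hold many cell types, and fewer cells of a type cannot be told apart from less RNA per cell. 57-4 is a single line, and any other difference between it and Pima S-1 cannot be told apart from semigamy.

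In plant cells, superoxide dismutase (SOD) turns superoxide into hydrogen peroxide, with separate enzymes for the cytosol, chloroplast and mitochondrion. Catalase in peroxisomes and ascorbate peroxidase then remove the peroxide, and ascorbate is restored through the ascorbate-glutathione cycle, in which glutathione reductase regenerates glutathione. Thioredoxins are small proteins that reduce disulfide bonds in other proteins, and reactive oxygen is known both as a by-product of metabolism and as a signal in pollen and in the embryo sac.

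The values are MAS5 signals, linear intensities that the authors' software scaled to a common trimmed mean on every array. The array median lay between 54.45 and 75.95, and signals under 50 were treated as 50, a level near background. Transcripts of the 3 cotton control genes were measured with probes near both ends, and the ratio of the 3' to the 5' signal was 11.7 to 21.1 on the 57-4 arrays, against 4.18 to 11.8 on the Pima S-1 arrays, higher in 57-4 in all 6 comparisons. Its part in the genotype ratios below was not tested. The geometric mean of the hybridization controls was 2598 in 57-4 against 1832 in Pima S-1 for anthers, with 3073 in 57-4 against 2392 in Pima S-1 for ovules. Of 15 probe sets described as ovule, fibre or seed products, 3 were at least 2-fold lower in anthers in the tissue fit and 0 were higher. Their summed signal was 21508 in 57-4 against 19112 in Pima S-1 for anthers, with 27112 in 57-4 against 40944 in Pima S-1 for ovules. No described probe set carried a word for pollen, anther, tapetum or stamen, so the anther label was not checked against markers. The published ovule list heads its signal columns in the opposite way to the deposited labels in 15 of the 15 redox probe sets it holds, while the sign of its log ratio follows the deposited labels in all 15. The deposited labels were used, and an exchange would turn round every ovule genotype ratio below.

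The SODs, their copper chaperone, catalase and the ascorbate peroxidases had lower signals in 57-4 ovules than in Pima S-1 ovules, by 1.34-fold to 1.81-fold, and the study had listed them for a difference there. In anthers the same probe sets differed by at most 1.19-fold between the genotypes as scaled by the authors. For a Cu/Zn SOD, the Mn SOD and catalase, another probe set taken to come from the same gene was higher in 57-4 ovules. Those of the Cu/Zn SOD and catalase lay near background. Scaling to the hybridization controls, bacterial and phage transcripts added to each sample, moved the median log2 ratio of all probe sets to -0.47 in anthers, against 0.00 as deposited, and to -0.30 in ovules, against 0.06, so genotype ratios are relative to that shift. Between the tissues, the listed probe sets of the chloroplast Cu/Zn SOD and the Mn SOD were lower in anthers than in ovules, by 2.03-fold and 2.59-fold. The chloroplast SOD was not called under some other processing, and another Mn SOD probe set had a tissue log2 ratio of only -0.16. A glutathione S-transferase was under 50 in anthers and bright in ovules. Thioredoxin-named probe sets had no common pattern.

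**Figure D1:**
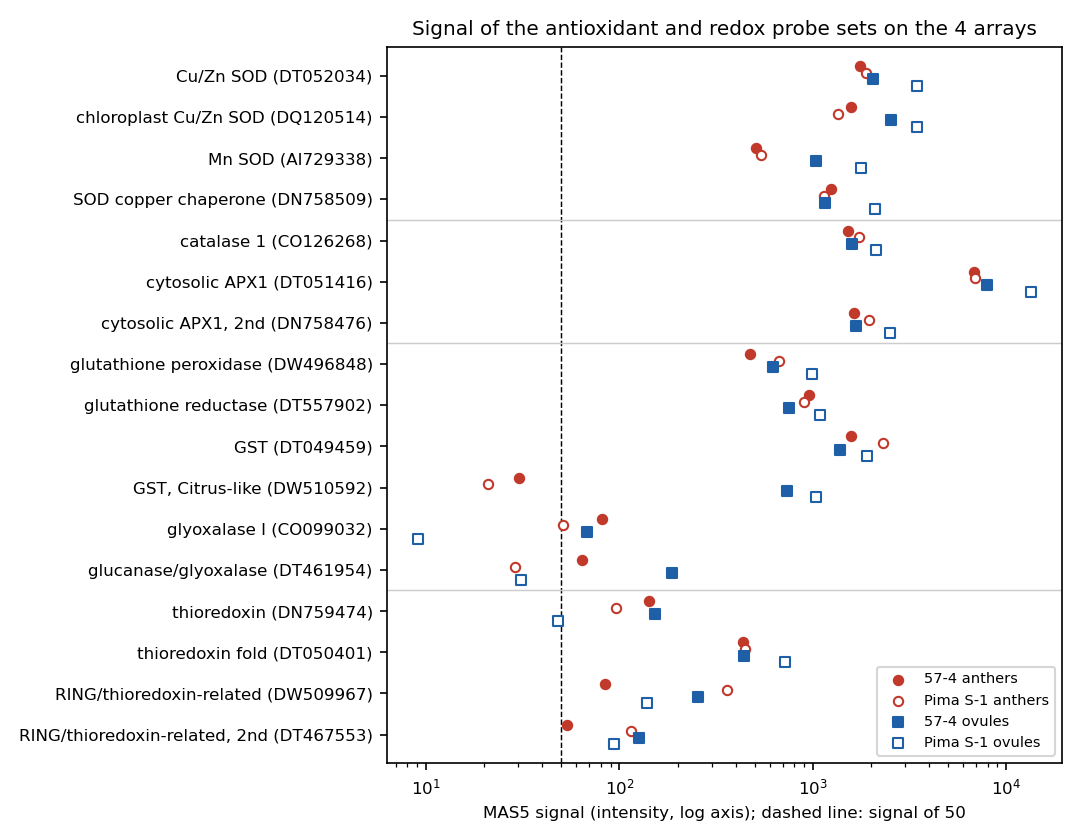
MAS5 signal (intensity, log axis) of the 17 antioxidant and redox probe sets, grouped by superoxide, peroxide, glutathione and thioredoxin functions, on the arrays of 57-4 anthers (filled circles), Pima S-1 anthers (open circles), 57-4 ovules (filled squares) and Pima S-1 ovules (open squares). The open square lies to the right of the other symbols for the 4 probe sets of the superoxide group and for catalase and both ascorbate peroxidases, while the Citrus-like glutathione S-transferase lies under the dashed line of 50 in both anther samples.

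The cytosolic-type Cu/Zn SOD (DT052034), which resembles CSD1 of Arabidopsis, had signals of 1761 in 57-4 against 1886 in Pima S-1 for anthers, with 2052 in 57-4 against 3456 in Pima S-1 for ovules. As a log2 ratio of 57-4 over Pima S-1, the genotype difference was -0.10 in anthers and -0.75 in ovules. Only Pima S-1 ovules stood apart, and the other 3 samples lay close together. The chloroplast Cu/Zn SOD (DQ120514), which acts beside the photosynthetic membranes, had 1584 in 57-4 against 1347 in Pima S-1 for anthers, with 2542 in 57-4 against 3461 in Pima S-1 for ovules, giving log2 ratios of 0.23 and -0.45. Here both ovule samples were above both anther samples, and the genotypes stood in opposite order in the tissues except under scaling to the hybridization controls, where the anther ratio was -0.27.

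The Mn SOD (AI729338), whose Arabidopsis counterpart MSD1 is mitochondrial, had 509.5 in 57-4 against 537 in Pima S-1 for anthers, with 1042 in 57-4 against 1767 in Pima S-1 for ovules. Its log2 genotype ratio was -0.08 in anthers and -0.76 in ovules, and the lower ovule sample was still well above both anther samples. The copper chaperone of Cu/Zn SOD (DN758509), which loads copper into the enzyme, had 1239 in 57-4 against 1136 in Pima S-1 for anthers, with 1162 in 57-4 against 2101 in Pima S-1 for ovules. Its log2 ratios were 0.12 in anthers and -0.85 in ovules, where it was the lowest of all 17 probe sets, and the anther ratio was -0.38 under scaling to the hybridization controls. Over the SOD and chaperone group the median was 0.02 in anthers and -0.76 in ovules on the log2 scale.

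A further 2 SOD probe sets were found by their array titles. The cytoplasmic Cu/ZnSOD (DQ088818) had 5187 in 57-4 against 5708 in Pima S-1 for anthers, with 5826 in 57-4 against 9639 in Pima S-1 for ovules, giving log2 ratios of -0.14 and -0.73. This is the same order of samples as in the cytosolic-type probe set above. The iron SOD (DQ088821), a plastid enzyme in Arabidopsis, had 24.1 in 57-4 against 79.7 in Pima S-1 for anthers, with 43.2 in 57-4 against 126.7 in Pima S-1 for ovules. Both 57-4 signals were under 50, so the iron SOD signal was lower in 57-4, by at least 1.59-fold in anthers and 2.53-fold in ovules. All signals of the iron SOD lay near background.

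Catalase isozyme 1 (CO126268), the peroxisomal enzyme that splits hydrogen peroxide, had 1528 in 57-4 against 1726 in Pima S-1 for anthers, with 1586 in 57-4 against 2128 in Pima S-1 for ovules. Its log2 ratios were -0.18 for anthers and -0.42 for ovules. The first cytosolic ascorbate peroxidase 1 (DT051416), which reduces hydrogen peroxide with ascorbate, had 6818 in 57-4 against 6929 in Pima S-1 for anthers, with 7930.3 in 57-4 against 13479 in Pima S-1 for ovules. As for the cytosolic-type SOD, 3 samples lay together and Pima S-1 ovules were above them, with log2 ratios of -0.02 for anthers and -0.77 for ovules. The other ascorbate peroxidase 1 (DN758476), whose array title names a calmodulin binding protein instead, had 1630.1 in 57-4 against 1943 in Pima S-1 for anthers, with 1670.3 in 57-4 against 2509.9 in Pima S-1 for ovules. Its log2 ratios were -0.25 and -0.59, and the identity of its transcript is uncertain because of the differing names.

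The enzymes that restore ascorbate were taken from a list of 16 related redox probe sets outside the naming rule. Dehydroascorbate reductase (DW508175), which uses glutathione to regenerate ascorbate, had 1561 in 57-4 against 1435 in Pima S-1 for anthers, with 962.5 in 57-4 against 1091 in Pima S-1 for ovules. Both anther signals were above both ovule signals, with a tissue log2 ratio of 0.55 (limma adjusted p = 0.0509), and the log2 genotype ratios were 0.12 in anthers and -0.18 in ovules. Monodehydroascorbate reductase (DV849758), which uses NAD(P)H for the same purpose, had 170.3 in 57-4 against 196 in Pima S-1 for anthers, with 236 in 57-4 against 439.9 in Pima S-1 for ovules, giving log2 genotype ratios of -0.20 and -0.90. A brighter probe set of the same UniGene cluster had 1411 in 57-4 against 1195 in Pima S-1 for anthers, with 1612 in 57-4 against 1028 in Pima S-1 for ovules, giving ratios of 0.24 and 0.65 on the other side of 0. L-ascorbate oxidase (DW520074), a cell wall enzyme that consumes ascorbate, had 433 in 57-4 against 942 in Pima S-1 for anthers, with 562 in 57-4 against 652 in Pima S-1 for ovules. Its log2 ratios were -1.12 for anthers and -0.21 for ovules, with Pima S-1 anthers as the one sample that stood apart.

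Glutathione peroxidase (DW496848), which reduces peroxides of lipids and hydrogen, had 473 in 57-4 against 668 in Pima S-1 for anthers, with 620.3 in 57-4 against 987 in Pima S-1 for ovules. It was lower in 57-4 in both tissues, with log2 ratios of -0.50 in anthers and -0.67 in ovules. Glutathione reductase (DT557902), which returns oxidized glutathione to its reduced form, had 960.4 in 57-4 against 902.5 in Pima S-1 for anthers, with 749 in 57-4 against 1090.2 in Pima S-1 for ovules. The genotypes stood in opposite order in the tissues, with log2 ratios of 0.09 and -0.54, and the anther ratio was -0.41 under scaling to the hybridization controls.

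Glutathione S-transferases (GSTs) couple glutathione to foreign and reactive compounds. The GST DT049459 had 1584 in 57-4 against 2311.5 in Pima S-1 for anthers, with 1377 in 57-4 against 1909 in Pima S-1 for ovules, giving log2 ratios of -0.55 and -0.47, so that 57-4 was lower by a similar amount in both tissues. The GST described by a Citrus sequence (DW510592) had 30.2 in 57-4 against 20.9 in Pima S-1 for anthers, with 738 in 57-4 against 1035 in Pima S-1 for ovules. Both anther signals were under 50, so no anther genotype ratio is given, and the ovule log2 ratio was -0.49. It was the one redox probe set that was bright in one tissue and under 50 on both arrays of the other.

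Glyoxalase I (CO099032), also called lactoylglutathione lyase, uses glutathione to remove methylglyoxal. It had 81.1 in 57-4 against 51.0 in Pima S-1 for anthers, with 67.7 in 57-4 against 9.1 in Pima S-1 for ovules, a log2 ratio of 0.67 in anthers and a difference of at least 1.35-fold in ovules. A probe set whose description joins beta-1,3-glucanase, a cell wall enzyme, with lactoylglutathione lyase (DT461954) had 64.0 in 57-4 against 29.0 in Pima S-1 for anthers, with 186 in 57-4 against 31.0 in Pima S-1 for ovules. It was higher in 57-4, by at least 1.28-fold in anthers and 3.73-fold in ovules, and which of the named products it measures is uncertain. All of these signals lay near background except the one in 57-4 ovules.

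The thioredoxin-named probe sets differed among themselves. A thioredoxin described by a maize sequence (DN759474) had 142 in 57-4 against 96.5 in Pima S-1 for anthers, with 153 in 57-4 against 48.1 in Pima S-1 for ovules, a log2 ratio of 0.56 in anthers and at least 3.07-fold higher in 57-4 ovules. A thioredoxin fold protein (DT050401) had 435 in 57-4 against 446 in Pima S-1 for anthers, with 441 in 57-4 against 722 in Pima S-1 for ovules. Like the cytosolic enzymes it differed little in anthers, with log2 ratios of -0.04 there and -0.71 in ovules.

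The remaining pair shared a description that joins a RING-type zinc finger, found in ubiquitin ligases, with a thioredoxin-related domain, and both entered through the anther list. DW509967 had 84.3 in 57-4 against 359 in Pima S-1 for anthers, with 255.5 in 57-4 against 139 in Pima S-1 for ovules. It was 4.26-fold lower in 57-4 anthers, a log2 ratio of -2.09, and 1.84-fold higher in 57-4 ovules, a log2 ratio of 0.88. DT467553 had 53.3 in 57-4 against 115 in Pima S-1 for anthers, with 127 in 57-4 against 94.1 in Pima S-1 for ovules, giving log2 ratios of -1.11 and 0.43. In both probe sets Pima S-1 was the higher in anthers and 57-4 the higher in ovules, and a test of the difference between tissues was not possible with 1 array per condition.

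At least a 2-fold genotype difference was found in anthers for 2 of the 16 probe sets measured there, both lower in 57-4 (DW509967 and DT467553), against 2.71% of the 15900 probe sets measured in anthers. None was at least 2-fold higher, against 1.59%. In ovules 2 of 17 were at least 2-fold higher in 57-4 (DT461954 and DN759474, both as lower bounds), against 4.46% of 14707, and 0 were at least 2-fold lower, against 4.14%. These counts come from the contrast through which the probe sets were listed, and nothing is read from them. Under scaling to the hybridization controls, 4 of 16 were at least 2-fold lower in 57-4 anthers, against 2123 of the 16722 probe sets measured. In 57-4 ovules 6 of 17 were, against 1410 of 13668. The floor of 100 left 0 of the 2 higher in ovules. The median log2 ratio over all measured members was -0.06 in anthers, against 0.00 over all measured probe sets, and -0.49 in ovules, against 0.06.

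A signal over 400 on all 4 arrays was reached by 11 of the 17, namely the SOD and chaperone group, catalase, both ascorbate peroxidases, glutathione peroxidase, glutathione reductase, the GST DT049459 and the thioredoxin fold protein. All 11 entered through the ovule list. In anthers their log2 ratios ran from -0.55 to 0.23, with 8 of 11 below 0. Under scaling to the hybridization controls 11 of 11 were below 0, where the median of all measured probe sets was itself -0.47. In ovules they ran from -0.85 to -0.42, with 11 of 11 below 0. Among all 3434 probe sets this bright, 41.6% were below 0 in anthers and 50.8% in ovules, both as deposited. The middle 95% of those 3434 lay between -0.61 and 0.61 in anthers and between -1.0 and 0.91 in ovules, so no bright redox probe set lay outside the spread of equally bright probe sets in either tissue. In ovules 15.7% of them had a ratio of -0.4 or lower.

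**Figure D2:**
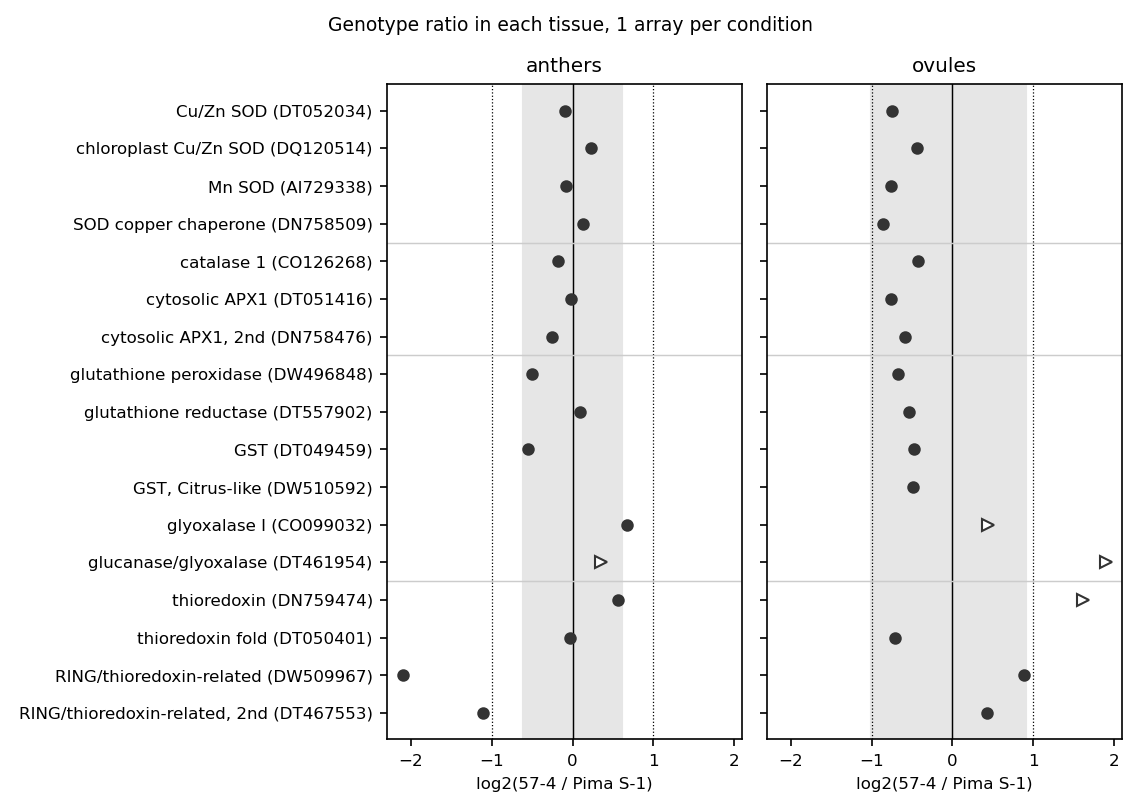
Log2 genotype ratio, 57-4 over Pima S-1, in anthers (left) and ovules (right), with 1 array per condition and no error. Circles are measured ratios, open triangles are lower bounds, dotted lines mark 2-fold, and the grey band holds the middle 95% of the 3434 probe sets with a signal over 400 on all 4 arrays. The upper 11 ovule circles lie between -0.85 and -0.42, and the 2 RING-type and thioredoxin-related probe sets lie on opposite sides of 0 in the tissues.

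The tissue contrast is not free of the listing, since the ovule arrays through which 15 of the 17 were listed also enter it, and 12 of the 17 had their higher ovule signal in Pima S-1. It was fitted with limma over all 13621 probe sets that reached 50 on both arrays of a tissue, with genotype as a block, so that each genotype gives 1 anther and 1 ovule value and 1 residual degree of freedom is left. The p-values test whether the mean tissue ratio is 0. Their error comes from how far the genotypes differ in that ratio, shared in part over all probe sets, not from the spread between plants. Of the 16 redox probe sets tested, 3 were lower in anthers with a Benjamini-Hochberg adjusted p of at most 0.05 and at least a 2-fold difference, against 7.23% of all probe sets tested, and 0 were higher in anthers, against 8.16%, with 0 of the 16 higher in limma also at an unadjusted p under 0.05. Of the 3, the Citrus-like GST passed the filter only through ovules and had to differ, so its p is not given, and the other 2 were at least 50 on all 4 arrays. As a description, the median log2 ratio of anthers to ovules was -0.38 over the 16, against 0.17 over all tested, and it was -0.16 with Pima S-1 ovules left out.

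The Citrus-like GST, set against the floor of 50, was at least 14.8-fold lower in anthers in 57-4 and at least 20.7-fold lower in Pima S-1, log2 ratios of at most -3.88 and at most -4.37. The Mn SOD had a log2 ratio of -1.37 (95% interval -1.85 to -0.90, limma adjusted p = 0.00338), with -1.03 in 57-4 and -1.72 in Pima S-1. The chloroplast Cu/Zn SOD had a ratio of -1.02 (95% interval -1.48 to -0.57, limma adjusted p = 0.00939), with -0.68 in 57-4 and -1.36 in Pima S-1, just past the 2-fold limit. With any 1 of the 4 arrays left out and only tissue fitted, the ratio was -1.76 to -0.99 for the Mn SOD (limma adjusted p of 0.133 to 0.325) and -1.24 to -0.80 for the chloroplast SOD (0.133 to 0.311), and limma then called no probe set of the array, with 2684 to 3990 at an unadjusted p under 0.05, so the lost calls say nothing particular to these genes. The same holds for a floor of 100 and for no filter on low signals, where both ratios stayed at -1.37 and -1.02, while the call of the chloroplast SOD alone was lost with quantile normalization (-0.86, limma adjusted p = 0.0346), hybridization-control scaling (-0.71, adjusted p = 0.0169) and no intensity trend (adjusted p = 0.0566).

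The other redox probe sets did not pass. The cytosolic-type Cu/Zn SOD had a tissue log2 ratio of -0.55 (95% interval -1.0 to -0.10, limma adjusted p = 0.0785) and the first ascorbate peroxidase -0.59 (95% interval -1.14 to -0.04, limma adjusted p = 0.109). Glutathione peroxidase had -0.48 (95% interval -0.89 to -0.06, limma adjusted p = 0.0939), and the copper chaperone -0.40 (95% interval -0.93 to 0.14, limma adjusted p = 0.244). Of these enzymes every fitted value was below 0, with an interval that reached no further than -1.14. Catalase had -0.18 (95% interval -0.56 to 0.20, limma adjusted p = 0.452), the other ascorbate peroxidase -0.20 (-0.59 to 0.19, adjusted p = 0.407) and glutathione reductase 0.04 (-0.42 to 0.50, adjusted p = 0.892), so a tissue difference of 2-fold lay outside all 3 intervals.

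The GST DT049459 had a tissue ratio of 0.24 (95% interval -0.13 to 0.60, limma adjusted p = 0.300). In the related list, 1 of 14 tested probe sets was called lower in anthers, against 7.23% of all tested, and 0 higher, against 8.16%. The called one was a GSTU25-like GST (AI055055) with 127 in 57-4 against 79.0 in Pima S-1 for anthers, with 325 in 57-4 against 448 in Pima S-1 for ovules, a log2 ratio of -1.93 (limma adjusted p = 0.00845). A further GST (AF159229) had 2325 in 57-4 against 3013 in Pima S-1 for anthers, with 1260 in 57-4 against 1796 in Pima S-1 for ovules, a log2 ratio of 0.82 (limma adjusted p = 0.01) that was under 2-fold and not called. The 4 GST probe sets thus ran from tissue ratios of at most -3.88 in each genotype for the Citrus-like GST to one of 0.82, and the difference between them was not tested.

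Among the thioredoxin-named probe sets, the intervals were widest for the RING-type and thioredoxin-related pair. Thioredoxin DN759474 had a tissue ratio of 0.42 and passed the filter only through anthers, so its p is not given. The thioredoxin fold protein had -0.36 (95% interval -0.88 to 0.17, limma adjusted p = 0.283). DW509967 had -0.11 (95% interval -1.50 to 1.27, limma adjusted p = 0.906), which joined a ratio of -1.60 in 57-4 with one of 1.37 in Pima S-1. DT467553 had -0.48 (95% interval -1.42 to 0.46, limma adjusted p = 0.414), from -1.25 in 57-4 and 0.29 in Pima S-1. For this pair the fitted mean describes neither genotype. Glyoxalase I had 0.14 and also passed the filter only through anthers, so its p is not given. The glucanase and lactoylglutathione lyase probe set was not tested because it reached 50 on both arrays of neither tissue.

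**Figure D3:**
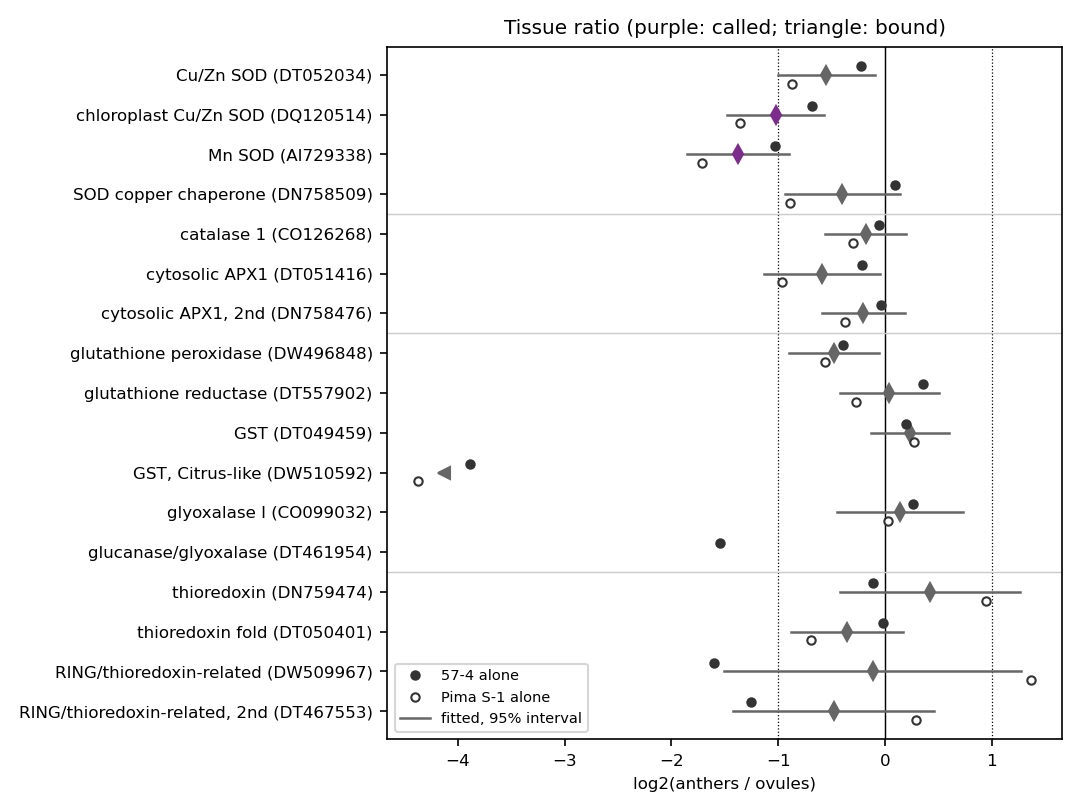
Log2 ratio of anthers to ovules for the redox probe sets, with signals under 50 set to 50. Diamonds are limma estimates over both genotypes with their 95% intervals, filled circles 57-4 alone and open circles Pima S-1 alone, dotted lines mark 2-fold, purple marks a call, and the triangle for the Citrus-like GST is the mean against the floor in anthers, shown with no interval. The Mn SOD at -1.37 and the chloroplast Cu/Zn SOD at -1.02 are purple, and the glucanase and lactoylglutathione lyase probe set was not fitted. Thioredoxin DN759474 and glyoxalase I passed the filter only through anthers, so nothing is read from their intervals.

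Other redox proteins in the list of 16 included protein disulfide isomerases, which form and rearrange disulfide bonds in the endoplasmic reticulum. The isomerase CO121107 had 66.3 in 57-4 against 212 in Pima S-1 for anthers, with 95.3 in 57-4 against 357 in Pima S-1 for ovules, giving log2 ratios of -1.67 and -1.91. AI725614, an isomerase-like protein, had 135.8 in 57-4 against 211 in Pima S-1 for anthers, with 75.5 in 57-4 against 193 in Pima S-1 for ovules, giving log2 ratios of -0.64 and -1.35. Both were lower in 57-4 in each tissue, whereas the other 2 isomerase-like probe sets were higher. DT051293 had 88.6 in 57-4 against 60.0 in Pima S-1 for anthers, with 146 in 57-4 against 26.1 in Pima S-1 for ovules, and DT464411 had 74.7 in 57-4 against 35.3 in Pima S-1 for anthers, with 104.5 in 57-4 against 17.3 in Pima S-1 for ovules. Their ovule differences were at least 2.92-fold and 2.09-fold, all near background. An RHD2-like NAD(P)H oxidase (DT049218), of the enzyme family that makes superoxide at the plasma membrane, had 347 in 57-4 against 455 in Pima S-1 for anthers, with 296 in 57-4 against 32.4 in Pima S-1 for ovules. Pima S-1 ovules were the only sample under 50. The log2 ratio of anthers to ovules was 0.23 in 57-4 and, against the floor of 50, at least 3.19 in Pima S-1. This probe set passed the filter of the tissue fit only through anthers, so its p is not given. Over the 16, 2 were at least 2-fold lower in 57-4 anthers, against 2.71% of all measured probe sets, and 0 higher, against 1.59%. In 57-4 ovules 3 were lower, against 4.14%, and 3 higher, against 4.46%. The list's names also come from the study's calls or from array titles, so nothing is read from these counts. The median log2 ratio of the list was -0.35 in anthers, against 0.00 over all measured probe sets, and -0.54 in ovules, against 0.06.

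The array carries 10 further probe sets of the same UniGene clusters (groups of sequences taken to come from 1 gene) as 6 of the 17, and none of these was on the study's lists. At least 1 was measured in ovules for each of the 6 clusters. In 5 of the 6 the further probe set stood on the other side of 0 from the listed one in ovules, and in 1 on the same side. For the cytosolic-type Cu/Zn SOD, the further probe set had 105.6 in 57-4 against 58.8 in Pima S-1 for anthers, with 132 in 57-4 against 54.0 in Pima S-1 for ovules, giving log2 ratios of 0.84 and 1.29, against the listed probe set's -0.10 and -0.75. All signals of this further probe set lay near background. For the Mn SOD, the measured further probe set had 441 in 57-4 against 409 in Pima S-1 for anthers, with 639 in 57-4 against 351 in Pima S-1 for ovules, giving log2 ratios of 0.11 and 0.87. Its tissue log2 ratio was -0.16 (95% interval -0.72 to 0.40, limma adjusted p = 0.664), against the listed probe set's -1.37, with -0.53 in 57-4 and 0.22 in Pima S-1. The ovule ratio of these genes thus depends on the probe set. Probe sets of a cluster can measure different copies of a gene, which the tetraploid cotton genome holds. In the 5 opposed clusters the listed and the measured further probe set also carried opposite marks, A against S, in their IDs. In the remaining cluster, further probe sets of both marks lay on the listed side. Neither gene copies nor the mark was tested as a source of the differences.

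For catalase, the further probe set had 92.7 in 57-4 against 58.8 in Pima S-1 for anthers, with 99.4 in 57-4 against 69.7 in Pima S-1 for ovules, giving log2 ratios of 0.66 and 0.51, all from signals near background. The brightest further probe set was that of thioredoxin, at 5809 in 57-4 against 4068 in Pima S-1 for anthers, with 6710.2 in 57-4 against 7851 in Pima S-1 for ovules. Its log2 ratio of -0.23 in ovules lay opposite to the listed probe set, which was near background. For glyoxalase I, the other probe set of the same consensus sequence had 25.9 in 57-4 against 71.6 in Pima S-1 for anthers, with 77.2 in 57-4 against 88.6 in Pima S-1 for ovules, giving an ovule log2 ratio of -0.20. For DT461954, the other probe set of its consensus sequence had 198 in 57-4 against 169 in Pima S-1 for anthers, with 1792 in 57-4 against 1122 in Pima S-1 for ovules, giving a tissue log2 ratio of -2.95 (limma adjusted p = 9.75e-05) and a log2 genotype ratio of 0.68 in ovules, the same side as the listed one.

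**Figure D4:**
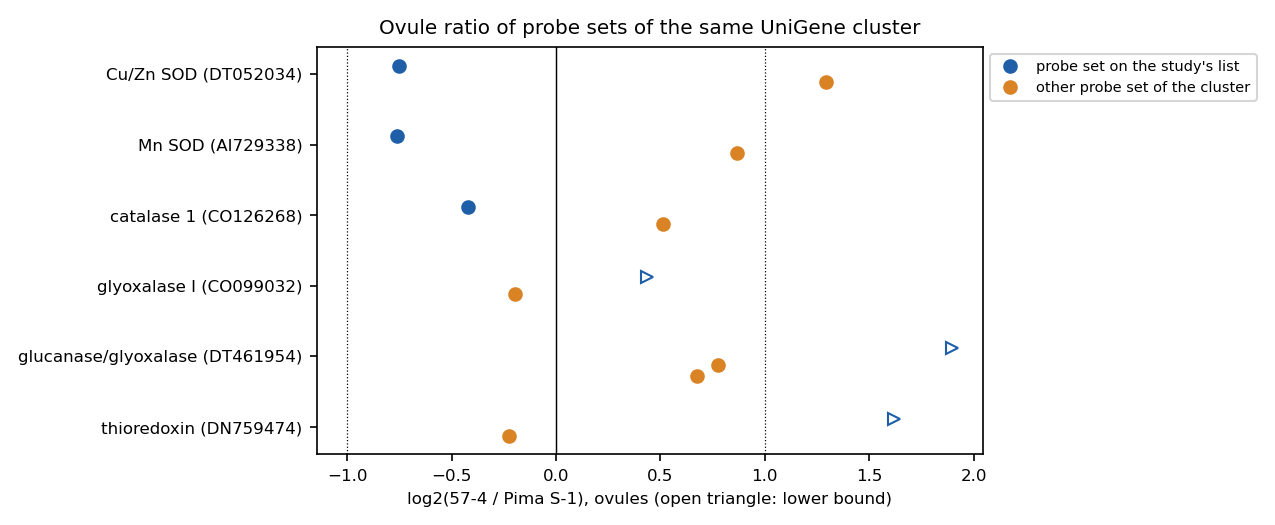
Log2 ratio of 57-4 to Pima S-1 in ovules for 6 listed redox probe sets (blue) and for the measured probe sets of the same UniGene cluster that were not listed (orange), with open triangles for lower bounds and dotted lines at 2-fold. Blue and orange lie on opposite sides of 0 in 5 of the 6 clusters, and on the same side for the glucanase and lactoylglutathione lyase cluster.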

How the data were processed

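Biotin-labelled cRNA of anthers and ovules was hybridized to Affymetrix Cotton Genome arrays. The deposited values are intensities, the MAS5 signals that the authors' software scaled to a common trimmed mean, with 1 array per tissue and genotype. No author's fold change was used. Product names came from the study's lists. Of the ovule list only a shortened table was held. The members and all lists were chosen with earlier results of these data known.

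Signals under 50 were set to 50, and log2 ratios of 57-4 to Pima S-1 were taken within a tissue with no test. A fold was a lower bound when the dimmer signal was under 50, and none was given when both were. Anthers were compared with ovules in limma 3.58.1 (R 4.3.3), with lmFit, eBayes with an intensity trend, genotype as a block and Benjamini-Hochberg adjustment. Tables were made with pandas 2.3.3 in Python 3.11.15. The number of arrays limits the precision. All members were named. Of the related and same-cluster probe sets, those with a signal of at least 200 and a 2-fold genotype ratio and all SODs were named, and the other named ones were chosen after their values were seen. Alternatives were no floor or a floor of 100, other scalings, single-transcript probe sets, other thresholds and filters, each array left out, and exchanged ovule arrays. The limma step was tested on simulated data. These had the same spread for all probe sets and no genotype difference, so performance on the real spread was not tested.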

Additional observations from a re-analysis of the deposited data

Results flagged for a closer look

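For 5 redox probe sets the genotypes stood in opposite order in the tissues, and the difference was not tested, since each condition has 1 array. The ovule log2 ratio of 57-4 to Pima S-1 minus the anther one was -0.68 for the chloroplast Cu/Zn SOD (DQ120514), -0.98 for the SOD copper chaperone (DN758509) and -0.63 for glutathione reductase (DT557902). In these 3 the anther ratio was at most 0.23, and it was -0.27, -0.38 and -0.41 in that order under scaling to the hybridization controls. The difference was 2.97 for DW509967 and 1.54 for DT467553, the RING-type and thioredoxin-related probe sets, both from the anther list.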

How the results depend on the processing

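Among all probe sets the tissue fit called 985 lower and 1112 higher in anthers. The lower count was 382 for single-transcript probe sets and 631 without the genotype block, and the higher count was 470 and 574, 2392 with hybridization-control scaling, 687 with centring and 1713 with no minimum ratio. With a floor of 100 and with no filter, limma called 0 in either direction, with 3233 and 3275 probe sets at an unadjusted p under 0.05 (5204 in the fit reported). Each left-out array also gave 0 to 0 calls, with 2684 to 3990 at an unadjusted p under 0.05, all on fewer samples. Members lower in anthers numbered 3, and 0 with a floor of 100 or no filter, 1 for single-transcript probe sets, and 0 to 0 with an array left out. Members higher were 0 to 0. Their median of -0.38 was -0.063 with hybridization-control scaling and -0.60 to -0.16 with an array left out.

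In the genotype ratios, hybridization-control scaling left 4 members at least 2-fold lower in anthers, against 2123 of 16722 probe sets. In ovules it left 6, against 1410 of 13668. The member medians were then -0.56 and -0.85, against -0.47 and -0.30 over all measured probe sets. A floor of 100 left 1 lower in anthers and 0 higher in ovules. Without a floor 1 was higher in anthers, and a 1.5-fold threshold gave 1 higher in anthers and 7 lower in ovules. Single-transcript members had medians of -0.49 in anthers and 0.43 in ovules, with 1 higher. With the ovule arrays exchanged the median was 0.49, with 2 lower and 0 higher, and the ratios of DT461954 and DN759474 were -1.90 and -1.62.

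Some tissue ratios changed sign. They were -0.055 for DN759474, 0.0089 for DW509967 and 0 for CO099032 with a floor of 100, 0.11 for DN758476, 0.20 for DW509967 and 0.14 for CO126268 with hybridization-control scaling, -0.13 for DT557902 and -0.030 for CO099032 with centring, and 0.036 for DT051416 with quantile normalization. With an array left out the ratios ran from -0.19 to 0.48 for CO099032, -0.39 to 0.034 for CO126268, -0.50 to 0.091 for DN758476, -0.82 to 0.030 for DN758509, -0.39 to 1.23 for DN759474, -0.034 to 0.51 for DT049459, -1.03 to 0.072 for DT467553, -0.23 to 0.31 for DT557902 and -1.16 to 0.93 for DW509967. The cause was not tested. Precision is limited by signals near 50 for CO099032, DN759474 and DT467553. DN758476, CO126268, DT557902, DT051416, DN758509 and DT049459 had signals over 400 on all 4 arrays.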

Other observations

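The A or S mark that each probe set ID carries was counted over the array. In 57-4 ovules, a signal at least 2-fold above that of Pima S-1 was found for 6.18% of 4867 probe sets marked A and one at least 2-fold below it for 1.66%, while the shares for 9836 marked S were 3.60% above and 5.37% below. The median log2 ratio of 57-4 to Pima S-1 in ovules was 0.17 for A and 0.00 for S, and in anthers 0.06 and -0.03. Of the redox members above 0 in ovules 4 were marked A and 1 was marked S, and of those below 0 there were 1 and 11. The part of the mark in the ovule ratios was not tested.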
